A study of Mus musculus with 2 samples.

Results

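The genes described here are 35 mouse genes that make the cytoskeleton, synaptic vesicles and synapses of neurons, read in ES cells that expressed either the neuronal or the usual form of a chromatin remodelling subunit. They were taken as a list of names, and every gene probe whose RefSeq accession belongs to 1 of these symbols was kept, which gave 52 probes of 39411 usable probes and 35 genes of 20819 genes named on the arrays. The rule uses names and no measured value, but the list was chosen with earlier results of these data known.

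RNA came from 2 cultures of a Tet-inducible Baf53a cKO ES cell line derived from E14 ES cells, and with 1 array for each there is no replicate to check a difference against. Values are therefore described without a test. The line is 1 clone in which both endogenous Baf53a alleles were mutated by CRISPR/Cas9, and Baf53a comes from a transgene that tetracycline (Tet) shuts off. The cells were transfected with an expression vector for Baf53a or for Baf53b, and 48 h later 1 μg/mL Tet was added for 6 days, so that the transfected protein took the place of the transgene. Both groups therefore carry the same mutated alleles, the same Tet treatment and the same ES cell medium with LIF, and differ in the transfected form: Baf53a-expressing and Baf53b-expressing, Baf53a-deficient ES cells.

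Baf53a and Baf53b are actin-related subunits of the BAF complex, which moves nucleosomes. Progenitors and ES cells use Baf53a, and when neurons leave the cell cycle they exchange it for Baf53b, which is needed for dendrite growth and synaptic function. Many genes of the neuronal cytoskeleton and the synapse are held down outside neurons by the repressor Rest, which binds a DNA element called RE1 beside them. The comparison asks how such terminal neuronal genes stood when the neuronal subunit was present in ES cells.

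A probe is read as its processed signal, the brightness of its spot after background subtraction, and a flag of the scanner software marks spots well above background. Signals are given unscaled, first in Baf53a-expressing and then in Baf53b-expressing cells, and each difference is Baf53b- minus Baf53a-expressing cells on the log2 scale after both arrays were set to the same 75th percentile. The reading error comes from the SD of such differences over spots of the same probe, called the spot SD, taken among probes of like brightness.

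The probe of Actl6b, which encodes Baf53b, gave a signal of 3.40, which is not well above background, where Baf53a was expressed and 119 where Baf53b was, a ratio of at least 14.5-fold (2.86-fold with normexp background correction). Actl6a, which encodes Baf53a, differed by -0.04. Where its probe lies in the message is not given in the sources used here. The 8 ES cell markers examined, among them Pou5f1, Nanog and Sox2, were all measured on both arrays, with a summed level of 307 and 297 on a linear scale where the 75th percentile of an array is 1. The 7 neural progenitor markers summed to 1.34 and 1.33. The astrocyte markers, 4 of 6 measured without Slc1a2 and S100b, summed to 1.58 on both arrays, and all 5 oligodendrocyte markers to 0.678 and 0.664. The mesoderm markers, 4 of 5 measured without Mixl1, summed to 2.77 and 2.53, and the fibroblast markers, 4 of 5 without Postn, to 1.24 and 1.21. A sum follows its brightest gene. That gene was Aldh1l1 (-0.01) for astrocytes, Thy1 (-0.15) for fibroblasts and Kdr, with probes at -0.18 and 0.29, for mesoderm. By gene, 3 astrocyte and 3 fibroblast markers were higher in Baf53b-expressing cells and 1 of each lower. Of the mesoderm markers 2 were higher and 2 lower. All 6 primitive endoderm markers were higher in Baf53b-expressing cells, with a summed level of 1.75 and 2.06, and so were the 4 of 5 trophoblast markers measured, all but Elf5, with 4.25 and 5.56. The brightest trophoblast marker was Krt8, at 0.44. Of all genes 49.1% were higher. Of all probes, put in 5 groups by brightness, 64.6% were higher in the dimmest group and 24.2% in the brightest. Whether the shifts of these markers had a part in the values of the neuronal genes was not tested. In a bulk sample, fewer cells of a type and less RNA per cell cannot be told apart.

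The promoters of Tubb3 and Syn1 are printed because they hold letters of RE1. That of Syn2 is printed because Syn1 and Syn2, of the same family, had differences on opposite sides of 0. The difference of Syn2 lay within 2 spot SDs. The 250 bases before the start of transcription are given 5′ to 3′ on the strand of the gene, from RefSeq on build GRCm38.p6. They are Tubb3 at chr8:123411303-123411552 on the plus strand, Syn1 at chrX:20920919-20921168 on the minus strand and Syn2 at chr6:115134652-115134901 on the plus strand. Capitals mark the letters CAGCACC, the left portion of RE1, on either strand, and in Syn1 also a longer match, CAGCACC followed after 2 free bases by GGNCAG.
Tubb3: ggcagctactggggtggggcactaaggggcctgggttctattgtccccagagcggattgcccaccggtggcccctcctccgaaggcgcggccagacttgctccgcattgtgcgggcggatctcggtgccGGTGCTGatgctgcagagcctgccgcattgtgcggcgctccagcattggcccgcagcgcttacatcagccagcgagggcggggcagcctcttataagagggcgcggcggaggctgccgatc
Syn1: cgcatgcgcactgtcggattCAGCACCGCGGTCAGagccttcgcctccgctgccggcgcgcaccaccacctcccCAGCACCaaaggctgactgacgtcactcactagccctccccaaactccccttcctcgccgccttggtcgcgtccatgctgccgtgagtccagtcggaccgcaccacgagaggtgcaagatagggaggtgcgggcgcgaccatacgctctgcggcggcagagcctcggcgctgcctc
Syn2: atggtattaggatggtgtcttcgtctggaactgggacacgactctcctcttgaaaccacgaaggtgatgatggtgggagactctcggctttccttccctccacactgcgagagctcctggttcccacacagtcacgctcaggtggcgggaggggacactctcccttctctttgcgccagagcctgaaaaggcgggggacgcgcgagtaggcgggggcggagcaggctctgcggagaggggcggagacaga
The Syn1 promoter held CAGCACC at 2 places, 1 of them as part of the longer match, the Tubb3 promoter held it once on the opposite strand and the Syn2 promoter not at all. A window of 300 bases, 250 before and 50 after a start, was present for 23 of the 35 genes, in 38 windows. CAGCACC lay in 4 of these windows, 10.5%, against 7.14% of all 32851 windows, in Tubb3, Syn1, Nlgn1 and Dlg4. The right portion, GGACAG, lay in 8 windows, 21.1%, against 22.2% of all. Both in this order with 2 free bases between lay in 0.0365% of all windows and in 0 of these. The looser form with GGNCAG on the right, chosen after the Syn1 sequence was seen, lay in 0.0578% of all windows and here only in Syn1. All of these patterns were searched on both strands, the longer ones contain the shorter, and a match is a run of letters and no proof of binding. Of the 4 genes with CAGCACC, Tubb3, Syn1 and Dlg4 were measured on both arrays and Nlgn1 on neither. The 20 measured genes with a window held a median of 21 CpG dinucleotides in it (4 to 51, the highest of a gene's windows), against 19 over all 13192 measured genes and 3 over 2927 genes seen on neither array. Among the genes not measured on both arrays, Dcx held 3, Nlgn1 14 and Gria2 26.

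Most of the neuronal genes gave signal in these ES cells, whichever form of Baf53 was present. Of the 35 genes, 30 had a probe well above background on both arrays, 85.7%, against 79.8% of all genes. Dcx was seen only in Baf53b-expressing cells, a state shared by 1.71% of all genes, and with a weaker detection flag it was measured on both arrays, 0.65 higher in Baf53b-expressing cells. Syt4, Gria1, Gria2 and Nlgn1 were seen on neither array, as were 17.8% of all genes, and 0 of the 35 were seen only in Baf53a-expressing cells, against 0.735%. Counted by probe, 40 of 52 were well above background on both arrays, 3 only in Baf53b-expressing cells and 9 on neither, that is 76.9%, 5.77% and 17.3% against 74.2%, 2.18% and 22.7% of all probes. The 3 were probes of Dcx, Map2 and Rbfox3, and other probes of Map2 and Rbfox3 were measured on both arrays. Seen only in Baf53a-expressing cells were 0 of the 52, against 0.959% of all probes.

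**Figure D1:**
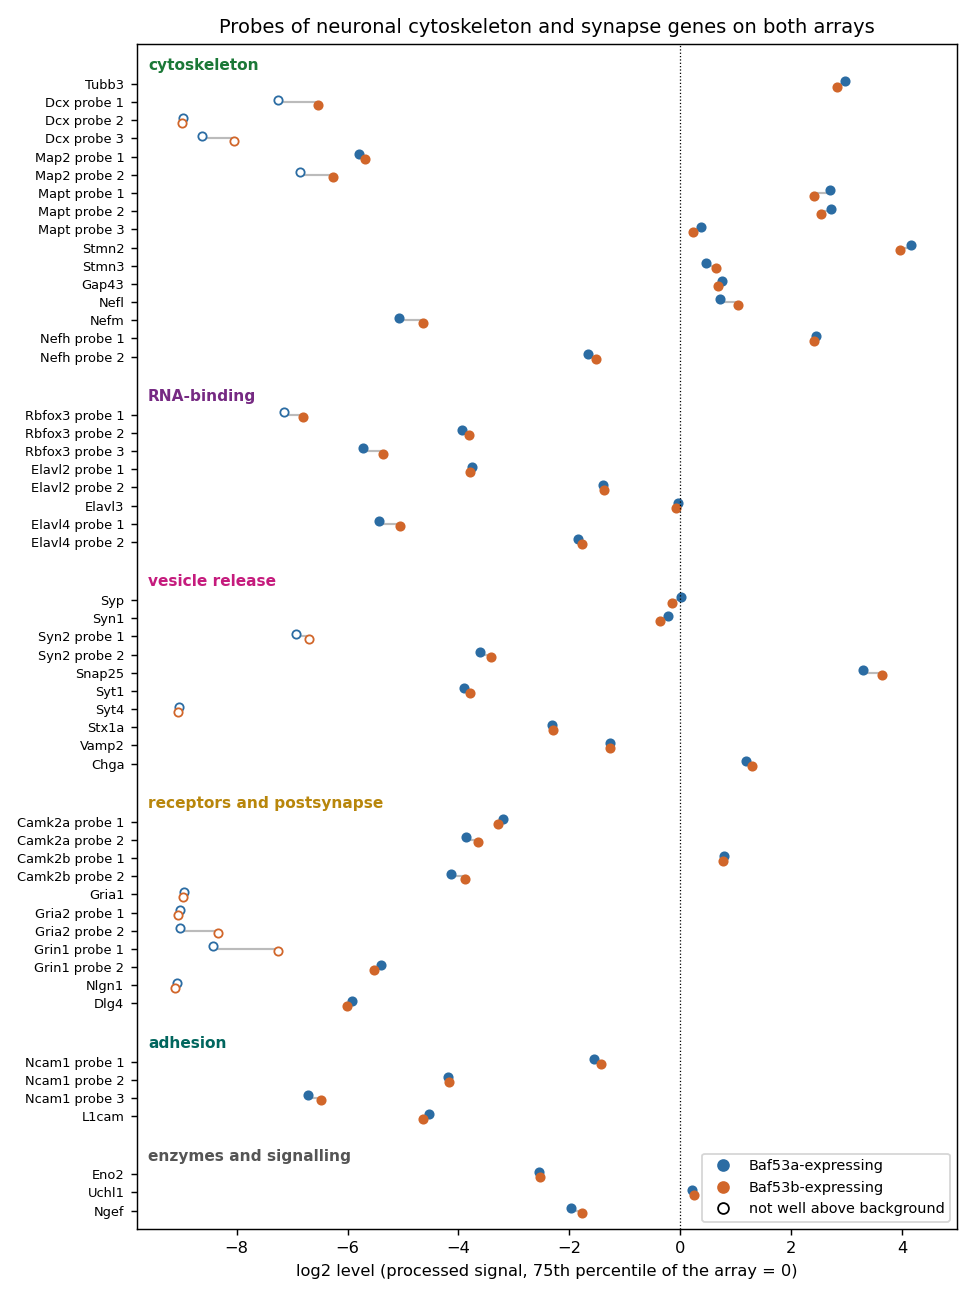
Level of each of the 52 probes in Baf53a-expressing cells (blue) and Baf53b-expressing cells (orange), as log2 processed signal with the 75th percentile of each array at 0, grouped by role. Filled points are well above background and open points are not. Only Dcx, Syt4, Gria1, Gria2 and Nlgn1 have no pair of filled points, and no filled pair is farther apart than that of Nefm, at 0.42.

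The 30 genes measured on both arrays differed little between the cells. No gene of them was 2-fold apart in either direction, where 0.102% of all 16604 measured genes were at least 2-fold higher in Baf53b-expressing cells and 0.0903% at least 2-fold lower. Their differences ran from -0.20 for Mapt to 0.42 for Nefm on the log2 scale, with an SD of 0.167 over genes against 0.189 for all genes. The median was 0.04, with 19 genes higher and 11 lower in Baf53b-expressing cells, against a median of -0.0032 for all genes, of which 49.1% were higher. The split of 19 and 11 became 15 and 15 with quantile normalization, where 46.9% of all genes were higher, and 15 and 15 with centring on the median, where 35.6% were. It became 16 and 14 with cyclic loess (48.3% of all genes higher) and 22 and 8 with normexp background correction (58.1%). At least 0.2 higher were 6 genes, Nefm, Snap25, Nefl, Rbfox3, Elavl4 and Syn2, against 12.7% of all genes, and at least 0.2 lower was 1 gene, Mapt, against 6.85%. Rbfox3, Elavl4 and Syn2 had no probe past 2 spot SDs, while Nefm, Snap25, Nefl and Mapt did. The other 23, or 76.7%, lay within 0.2, as did 80.5% of all genes. Syn2 and Mapt lay just past this mark, and Ngef and Stmn2 just short of it.

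**Figure D2:**
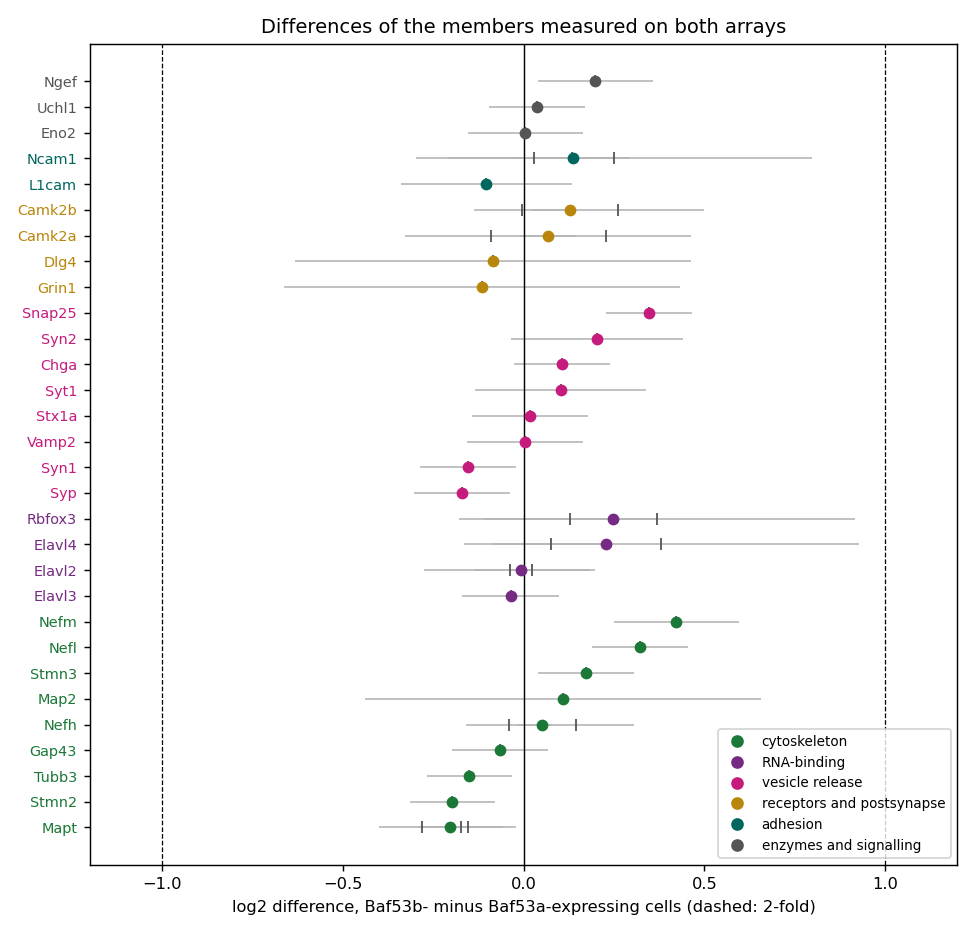
Log2 difference, Baf53b- minus Baf53a-expressing cells, of the 30 genes measured on both arrays, coloured by role. Points are gene values (the mean of the measured probes), upright ticks are single probes, and dashed lines stand at 2-fold. Grey lines reach 2 spot SDs on either side of each probe, for Nefm after division by the square root of its number of spots. Every point and tick lies inside the dashed lines, and the genes farthest apart are Nefm at 0.42 and Mapt at -0.20.

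Microtubule genes made up much of the cytoskeletal group. Among them Tubb3, Mapt and Stmn2 had lower values in Baf53b-expressing cells, all below 2-fold, and Stmn3 a higher one. Tubb3, the beta-tubulin used as a marker of neurons, had a processed signal of 9122 in the cells with Baf53a and 7984 in those with Baf53b, a difference of -0.15. Mapt, the axonal protein tau, had 3 probes with signals of 7550 and 6036, 7606 and 6546, and 1512 and 1320. All 3 were lower in Baf53b-expressing cells, by differences of -0.28, -0.17 and -0.15, and their mean of -0.20 was the lowest difference of the 30 genes. Stmn2, which destabilises microtubules in growing neurites, read 20828 and 17651 and differed by -0.20. Its relative Stmn3 lay on the other side with 1610 and 1762, a difference of 0.17. Gap43, a protein of growth cones, read 1946 and 1806 and differed by -0.07.

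Map2, the microtubule protein of dendrites, gave signals near background. Its measured probe read 20.9 and 21.8, 0.11 apart, within 2 spot SDs. The second Map2 probe read 10.02, not well above background, against 14.6 in Baf53b-expressing cells, a difference of at least 1.51-fold. Such a bound divides the bright value by the dim array's lowest signal well above background (here 8.45) or the probe's own signal if that is larger. A fold given as at least is this bound. It leaves out the reading error, so it is no strict minimum for signals this dim. For Map2 it is the ratio of 2 single spots, 0.59 on the log2 scale, where the spot SD was 0.274. With normexp the bounds of Dcx, Map2 and Rbfox3 were 1.103-, 1.086- and 1.089-fold. Dcx, doublecortin of migrating young neurons, was likewise seen on 1 of its 3 probes, with 7.58 and 12.2, a difference of at least 1.49-fold. The other Dcx probes read 2.31 and 2.21, and 2.95 and 4.26, not well above background on either array. The presence of Dcx in Baf53b-expressing cells thus rests on 1 spot, whose signal of 12.2 lies near the lowest signal well above background on that array, 9.75.

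The neurofilament genes, whose products fill axons, held the largest difference of the list at this scaling and filter, that of Nefm. Snap25 was farther from 0 than Nefm with quantile normalization, cyclic loess or normexp. Nefl, the light chain, read 1915 in the cells with Baf53a and 2324 in those with Baf53b, 0.32 higher or 1.25-fold. Nefm, the medium chain, was the only 1 of the 52 probes printed in 10 spots per array. Its spots ran from 30.8 to 40.0 with a median of 33.5 in Baf53a-expressing cells, and from 39.5 to 50.5 with a median of 45.3 in Baf53b-expressing cells. With the 75th percentile of both arrays at 0, all 10 spots of Baf53b-expressing cells lay above the highest spot of Baf53a-expressing cells, by less than the shift that centring on the median makes, so the ranges overlap unscaled and under that centring. The difference was 0.42, or 1.34-fold (0.37 with centring on the median), with SDs over the 10 spots of an array of 0.120 and 0.129 on the log2 scale. These spots are repeats on the same array and cover the error of printing and reading only. Nefh, the heavy chain, had probes on both sides of 0, with 6369 and 6014 (-0.04) and with 366 and 392 (0.14), and a mean of 0.05. Under every scaling run, Nefl stayed between 0.27 and 0.35 and Nefm between 0.22 and 0.42, the lowest Nefm value coming with normexp. Over the 9 cytoskeletal genes measured, 5 were higher and 4 lower (55.6% higher, against 49.1% of all genes), with a median of 0.05. The sign of this median turned with quantile normalization (-0.01), the brightest probe (-0.04) and the stricter filter (-0.07), and over the 12 measured probes it was -0.05, with 5 higher and 7 lower.

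**Figure D3:**
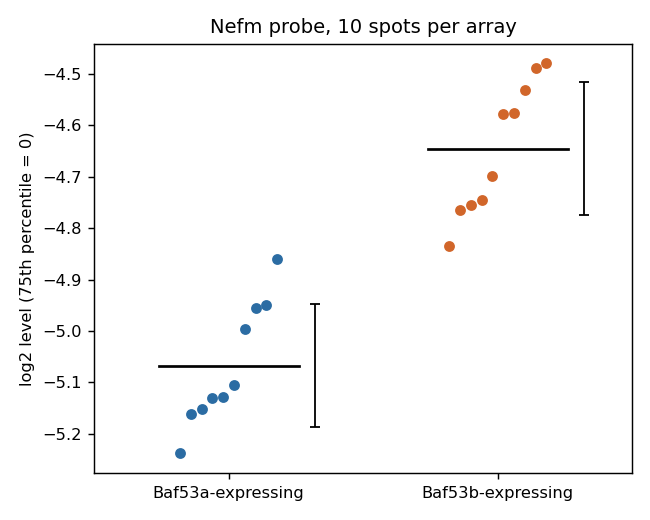
Log2 level (75th percentile of each array at 0) of the 10 spots of the Nefm probe in Baf53a-expressing cells and in Baf53b-expressing cells. Horizontal lines are means and bars are SDs over spots of 1 array. The orange spots run from -4.83 to -4.48 and the blue spots from -5.24 to -4.86, with no overlap under this scaling.

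RNA-binding proteins of neurons came next. Rbfox3, the splicing factor known as NeuN, had measured probes of 75.8 and 80.5 (0.13) and of 21.9 and 27.4 (0.37), and a mean of 0.25. A further Rbfox3 probe read 8.14, not well above background, and 10.1, a difference of at least 1.23-fold. All 3 probes were higher in Baf53b-expressing cells, and neither of the measured ones lay past 2 spot SDs. Elavl4, an RNA-stabilising Hu protein of neurons, read 324 and 332 (0.08) and 26.8 and 33.9 (0.38), a mean of 0.23. Its relatives lay near 0. Elavl2 read 440 and 435 (0.02) and 85.7 and 81.1 (-0.04), and Elavl3 read 1126 and 1067 (-0.04). In Rbfox3 and in Elavl4 the dimmer probe gave the larger difference, and on the brighter probe alone the genes stood at 0.13 and 0.08.

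Among the genes of vesicle release, Snap25 had the largest difference. This gene, whose SNARE protein drives fusion of vesicles with the plasma membrane, read 11383 in the cells with Baf53a and 14060 in those with Baf53b, 0.35 higher or 1.27-fold. It was the only 1 of the 6 neuronal probes in the brightest group of the arrays that was higher in Baf53b-expressing cells. Of all probes in that group 24.2% were higher. Snap25 lay between 0.30 and 0.41 under every scaling run. The other SNARE genes lay near 0. Stx1a, its partner in the plasma membrane, read 235 and 231 (0.02), and Vamp2, its partner on the vesicle, 481 and 468 (0.00). The calcium sensor Syt1 read 77.9 and 81.2 (0.10), and Syt4 read 2.22 and 2.12, not well above background on either array.

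Genes of the vesicle itself did not share a direction. Syp, an integral protein of synaptic vesicles, read 1174 and 1013, a difference of -0.17. Syn1, which tethers vesicles to the cytoskeleton and whose promoter held the longer match above, read 998 and 871, a difference of -0.15. Syn2, of the same family and with no such letters in its promoter, read 94.7 and 106, a difference of 0.20 on a dimmer probe, within 2 spot SDs. The other Syn2 probe read 9.55 and 10.9, not well above background on either array. Whether the promoter letters had a part in these values was not tested. Chga, a protein of dense-core granules, read 2652 and 2772 (0.11). Over the 8 vesicle genes measured, 6 were higher and 2 lower (75% higher, against 49.1% of all genes), with a median of 0.06. Stx1a (0.02) and Vamp2 (0.00) count among the 6. Both went below 0 with quantile normalization, centring on the median and cyclic loess, where the median of the role was 0.02, 0.01 and 0.01. Syp and Syn1 stayed lower and Syn2 stayed higher in every scaling run.

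Receptors and postsynaptic genes were the least detected role, with 3 of 7 genes seen on neither array (42.9%, against 17.8% of all genes). Gria1 and Gria2, subunits of AMPA glutamate receptors, gave no signal well above background: Gria1 read 2.35 and 2.26, and the Gria2 probes 2.22 and 2.13, and 2.22 and 3.50. Nlgn1, an adhesion protein of excitatory synapses, read 2.14 and 2.04. No fold is given for these. Grin1, the obligatory NMDA receptor subunit, read 27.4 and 24.6 on its measured probe (-0.12), and 3.36 and 7.37, not well above background, on the other. Dlg4, the scaffold PSD-95, read 19.2 and 17.6 (-0.08). Both lay within 2 spot SDs of 0.

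The kinase genes of this role were measured on every probe. Camk2a, the alpha subunit of the calcium-dependent kinase of synapses, had probes of 127 and 116 (-0.09) and of 79.2 and 90.1 (0.23), which disagreed in direction. Camk2b, the beta subunit, had probes of 1997 and 1932 (-0.01) and of 65.8 and 76.6 (0.26). For both genes the brighter probe lay at or below 0 and the dimmer probe above it. Their means were 0.07 and 0.13. Over the 4 genes measured in this role, 2 were higher and 2 lower (50% higher, against 49.1% of all genes), with a median of -0.01. That median was -0.10 with quantile normalization, -0.09 with the brightest probe, -0.07 with cyclic loess and -0.06 with centring on the median. It was 0.07 with normexp or no filter and 0.10 with the weaker flag, so its direction depended on the setting.

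The remaining genes, of adhesion and of metabolism or signalling, had gene values within 0.2 of 0. Ncam1, a homophilic adhesion molecule, had probes of 393 and 418 (0.13), 63.3 and 62.7 (0.03), and 11.01 and 12.7 (0.25). All 3 were higher in Baf53b-expressing cells, with a mean of 0.14. L1cam, an adhesion molecule of axons, read 50.2 and 45.4 (-0.10). Eno2, the neuronal enolase, read 199 and 194 (0.00), and Uchl1, a neuronal ubiquitin hydrolase, 1347 and 1342 (0.04). Ngef, a guanine nucleotide exchange factor that acts downstream of Eph receptors, read 294 and 328 (0.20), past 2 spot SDs.

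Several genes had more than 1 measured probe, which repeats the reading with another probe. Of 8 such genes, Rbfox3, Elavl4 and Ncam1 had all probes higher in Baf53b-expressing cells, Mapt had all probes lower, and Nefh, Elavl2, Camk2a and Camk2b had probes on both sides of 0. Over all 4210 genes with several measured probes, 29.3% had all higher and 30.5% all lower. Probes of 1 gene share the RNA and the array, so they are repeats of the reading and not of the culture.

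The differences went with the brightness of the probe, for these genes and over the arrays as a whole. The 29247 measured probes were put in 5 equal groups from dim to bright. Their median difference went from 0.10 over 0.05, 0.02 and -0.02 to -0.06, and that of the neuronal probes, 7, 9, 8, 10 and 6 of them, from 0.25 over 0.10, 0.05 and -0.02 to -0.16. Above the 75th percentile on both arrays stood 13 probes of 11 neuronal genes, of which 8 were lower and 5 higher in Baf53b-expressing cells, with a median of -0.04. All 9731 probes that bright had a median of -0.05, and 69.5% of them were lower. Of the other 27 neuronal probes, 19 were higher and 8 lower, with a median of 0.08, where all such probes had a median of 0.04 and 59.2% were higher. The values of Tubb3, Mapt and Stmn2 lay below, and those of Nefl, Snap25 and Stmn3 above, the median of probes of their own brightness.

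**Figure D4:**
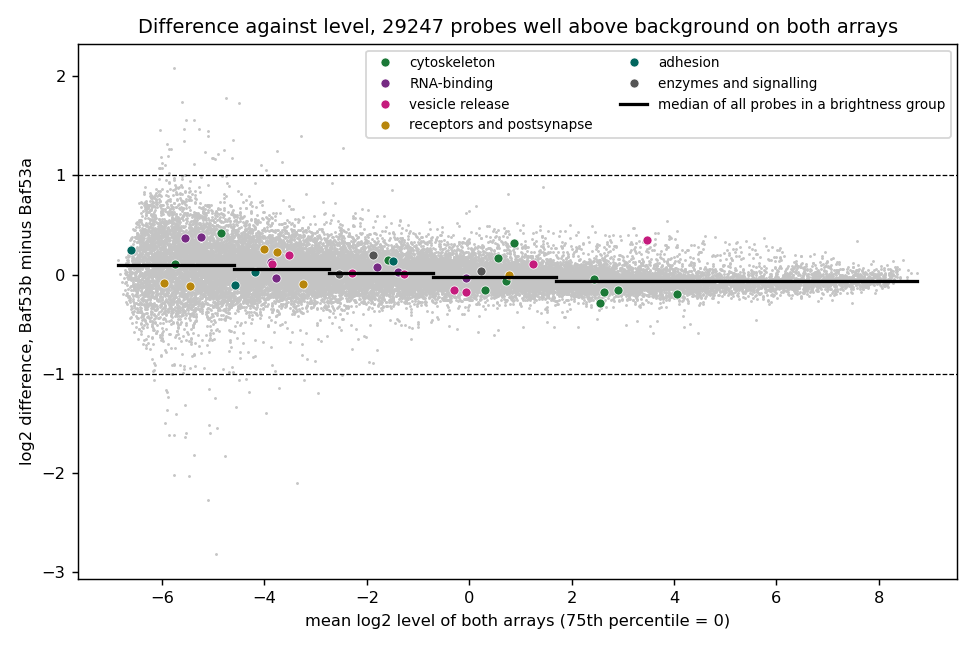
Log2 difference, Baf53b- minus Baf53a-expressing cells, against the mean log2 level of both arrays, for all 29247 probes well above background on both (grey) and the 40 neuronal probes among them (coloured by role). Black lines are medians of 5 brightness groups, which run from 0.10 at the dim end to -0.06 at the bright end, and dashed lines stand at 2-fold. All coloured points lie between -0.28 and 0.42.

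Spots of the same probe gave the reading error. Among probes with at least 5 spots, the spot SD of a difference was 0.274 in the dimmest and 0.0590 in the brightest group. For a probe with several spots it was divided by the square root of their number, which gave 0.0865 for Nefm. Against 2 such SDs, 13 of 40 neuronal probes were farther from 0, 32.5%, where 22.9% of all probes were. Higher were 6 of them (15%, against 11.3%), the probes of Stmn3, Nefl, Nefm, Snap25 and Ngef and the dimmer probe of Camk2b. Lower were 7 (17.5%, against 11.6%), the probes of Tubb3, Mapt, Stmn2, Syp and Syn1. In the brightest group the median of all probes was itself about as far from 0 as 1 spot SD.

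**Figure D5:**
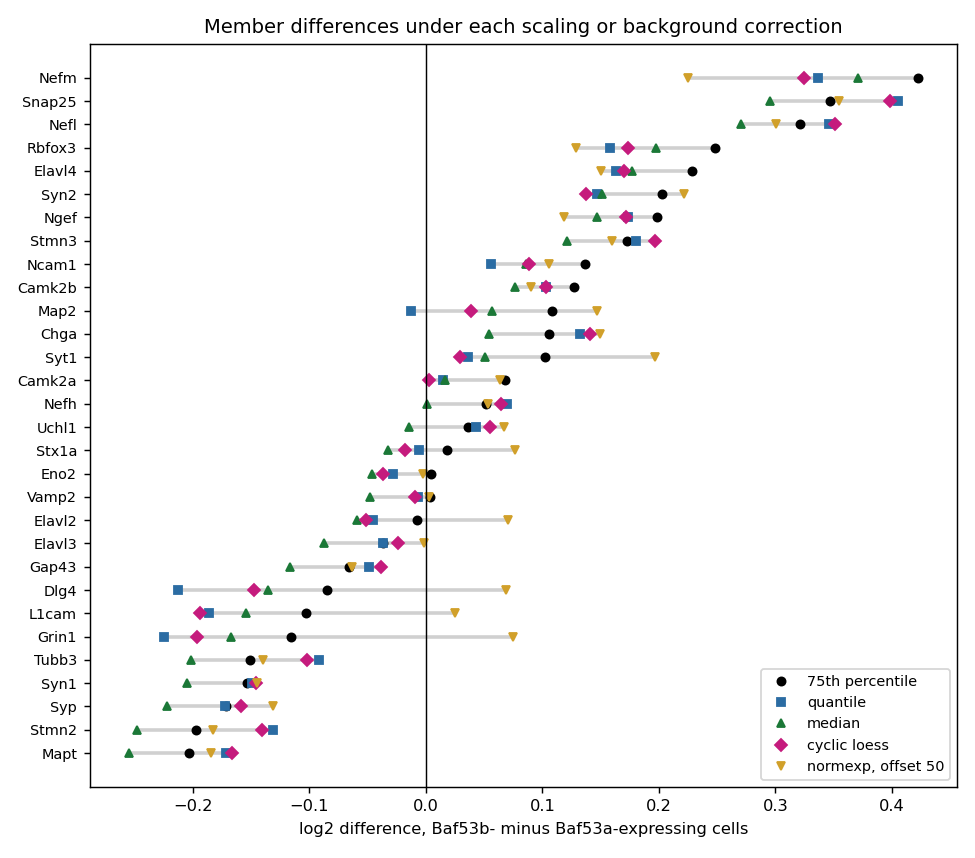
Log2 difference, Baf53b- minus Baf53a-expressing cells, of the 30 measured genes under 5 ways of correcting and scaling the arrays (symbols), joined by a grey line for each gene. Nefm, Snap25 and Nefl stand above 0.2 under all of them, and Mapt, Stmn2, Syp, Syn1 and Tubb3 below 0.

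Several genes changed side with the scaling, with differences as far from 0 as -0.12 (Grin1) and 0.11 (Map2). Nefh (0.05) and Elavl3 (-0.04), nearer 0, kept their side. Under 6 ways of correcting or scaling the arrays, the authors' own table among them, 14 genes stayed higher and 7 stayed lower in Baf53b-expressing cells. The other 9, Map2, Elavl2, Stx1a, Vamp2, Grin1, Dlg4, L1cam, Eno2 and Uchl1, changed side at least once. Mapt lay between -0.25 and -0.17 and Stmn2 between -0.25 and -0.13.

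Relatives of these genes, most of them used in many tissues, were read beside them. Of 19 relatives, 18 were measured, with a median of 0.03, 11 higher and 7 lower, and 0 were 2-fold apart. Tubb5 stood at -0.07 beside Tubb3 at -0.15, and Stmn1 at -0.12 beside Stmn2 at -0.20 and Stmn3 at 0.17. Vim stood at 0.06 beside Nefl at 0.32, Nefm at 0.42 and Nefh at 0.05, and Map4 at -0.06 beside Map2 at 0.11 and Mapt at -0.20. Rbfox2 stood at 0.00 beside Rbfox3 at 0.25, and Dlg1 at 0.19 beside Dlg4 at -0.08. Elavl1 stood at -0.06 beside Elavl2 at -0.01, Elavl3 at -0.04 and Elavl4 at 0.23. Snap23, which replaces Snap25 in most tissues, had probes at 0.30 and 0.02 and a mean of 0.16. Stx3 stood at 0.41, with 3 probes between 0.28 and 0.52, and Stx4a at -0.08, where Stx1a was at 0.02. Vamp3 stood at 0.31 and Vamp8 at 0.11, where Vamp2 was at 0.00. Camk2d and Camk2g stood at 0.10 and 0.00 beside Camk2a at 0.07 and Camk2b at 0.13. Eno1 stood at -0.09 beside Eno2 at 0.00, and Uchl3 and Uchl5 at 0.11 and -0.12 beside Uchl1 at 0.04. Gria3 was seen on neither array. Nrcam, of the family of L1cam, stood at 0.27 and L1cam at -0.10.

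The regulators tied to these genes differed by less than 0.2. Rest had probes of 2276 and 2153 (-0.04) and of 6085 and 5500 (-0.10), and its cofactors Rcor1 and Rcor2 stood at -0.05 and -0.12. Of the other subunits that neurons exchange in BAF, Dpf1 was at -0.08, Dpf3 at 0.14 and Ss18l1 at -0.06, and their progenitor counterparts Phf10, Dpf2 and Ss18 were at -0.02, -0.18 and 0.00.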

How the data were processed

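Total RNA of 2 cultures was labelled with 1 dye and hybridised to 2 Agilent arrays of 1 slide, at array positions 3 and 4, with 1 array per group. The authors scanned them and deposited, per spot, an intensity after background subtraction and spatial detrending (Feature Extraction 11.0.1.1; design annotated on mm9). They also deposited a table of 30488 probes, each value a ratio of the intensity to 1 number per array (1160 and 1126, matched within 0.1%), used only as an alternative.

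From the intensities, without control spots and outlier spots (173 and 143, none on the probes described), the mean log2 signal of each probe was taken and scaled so that the 75th percentile of an array (a signal of 1161 and 1128) was 0. No spot was saturated. A probe was well above background where 50% or more of its spots were flagged so (75.2% and 76.4% of probes), and precision is limited by 1 array per group and by the lowest such signals, 8.45 and 9.75. A gene's difference is the mean over its measured probes. Signals in the text are unscaled and differences are scaled. Gene symbols came from the RefSeq accession of each probe through a table of GRCm38.p6, used for names only, and 1 chromosome was not analysed for promoters.

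All members were named, and of other genes those set by rule: relatives, BAF and Rest genes, ES cell markers, and further neuronal genes 2-fold apart or with such a bound. Also named, outside this rule, were Tubb2b, Map1b and Ina as examples, Scg2 and Rims1, and markers not measured or brightest in their list. The members and lists were chosen with earlier results of these data known. Alternatives were cyclic loess, quantile normalization, centring on the median, normexp with an offset of 50, no filter, a stricter filter, outlier spots kept, a weaker flag, the flag on every spot, the brightest probe and the authors' table. Python 3.11.15 (numpy 2.4.6, pandas 2.3.3, scipy 1.17.1) and R 4.3.3 (limma 3.58.1) were used. The steps were tested on simulated data for probes measured on both arrays, with changes far larger than those of these genes. That check does not cover differences of the size reported here, detection or the bounds.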

Additional observations from a re-analysis of the deposited data

How the results depend on the processing

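In all 11 alternatives, 0 of the measured genes were 2-fold apart in either direction. The number of neuronal genes measured was 17 with the stricter filter, which keeps the brighter part of the probes, against 30. The median difference lay between -0.01 (centring on the median, which moved the median of all genes to -0.05) and 0.07 (normexp and the weaker flag). The counts of genes at least 0.2 higher and lower, 6 and 1 (12.7% and 6.85% of all genes), were 3 and 2 with quantile normalization (8.998% and 9.41%), 3 and 5 with centring (9.14% and 12.9%), 3 and 0 with cyclic loess (9.58% and 8.82%) and 4 and 0 with normexp (7.46% and 2.27%). They were 10 and 1 without a filter (16.5% and 9.31%), 2 and 1 with the stricter filter (3.86% and 4.79%), 9 and 1 with the weaker flag (16.9% and 9.29%) and 4 and 0 with the brightest probe (12.5% and 7.37%). The cause was not tested. Grin1 went from -0.12 to 0.53 where its probe not well above background was let in, Nefh and Camk2a went below 0 (-0.04 and -0.09) on the brightest probe, and the bounds under normexp were 1.103-fold for Dcx, 1.086-fold for Map2 and 1.089-fold for Rbfox3. No paired analysis was possible because each group has 1 array, and for the same reason none could be left out. Signal over background leaves Syt4, Gria1, Gria2 and Nlgn1 without a difference and Dcx with a bound.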

Other observations

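A further 73 neuronal genes were read beside the 35, and 72 of them had a probe. Of these, 58 were measured on both arrays (80.6%, against 79.8% of all genes), 1 was seen only in Baf53b-expressing cells, 2 only in Baf53a-expressing cells and 11 on neither. Their median was 0.00, with 31 higher and 27 lower (53.4% higher, against 49.1% of all genes). At least 0.2 higher were 7 and at least 0.2 lower 7, against 12.7% and 6.85% of all genes. All 16 of the cytoskeletal genes, among them Tubb2b, Map1b and Ina, were measured and lay within 0.2, with a median of -0.05. Of all measured genes 80.5% lay within 0.2.

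Of the 58, only Bsn was 2-fold apart. Bsn, the presynaptic scaffold bassoon, had 1 probe with a signal of 13.1 in the cells with Baf53a and 30.7 in those with Baf53b, 1.27 higher on the log2 scale or 2.41-fold. Both signals were near the lower limit of the arrays, and 0.102% of all genes were at least 2-fold higher. Nrxn3, a presynaptic adhesion gene, gave probes that disagreed. In Baf53b-expressing cells 1 probe was at least 2.01-fold higher (10.1 not well above background, and 19.8), and a second at least 1.53-fold (11.8 not well above background, and 17.6), while another, at 14.7 and 2.17, was at least 1.47-fold higher in Baf53a-expressing cells and the probe measured on both arrays differed by -0.20. Named after their values were seen, Scg2, a granin of dense-core granules, read 18.1 and 28.0 (0.67), and Rims1, an active zone protein, had probes at -0.76 and -0.35.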
